A study of Mus musculus with 5 samples.

Results

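The addition of ovalbumin to a plant polysaccharide was examined by setting 1 array of peritoneal cells from mice given both substances against 1 array from mice given the polysaccharide alone. A gene entered when the scanner marked its probe as well above background on at least 1 of these 2 arrays, which held for 14692 of 20121 named genes and for 33466 of 55681 probes. The first array came from female BALB/c mice injected intraperitoneally with 25 µg OVA (ovalbumin, a protein antigen of hen egg white) mixed with 50 µg AEPS (a polysaccharide of the plant Actinidia eriantha). The second came from female BALB/c mice injected with 50 µg AEPS and no antigen. Arrays for 25 µg OVA with 200 µg Alum (aluminium salt, a vaccine adjuvant), for 25 µg OVA alone and for PBS (the saline vehicle) are given beside them where they place a level. Cells were washed out of the peritoneal cavity 2 h after the injection in every group, and the sources used here do not say whether several mice were pooled. Each group had 1 array, so the spread between animals could not be estimated, no test was possible and no p-value is given. Higher and lower therefore describe these arrays, and every difference is OVA+AEPS minus AEPS in log2 units unless another pair is named.

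The peritoneal cavity holds resident macrophages and B cells together with mast cells, T cells and natural killer (NK) cells, and neutrophils and monocytes enter it from blood within hours of an irritant. An adjuvant acts on such cells through innate sensors, while a protein antigen is taken up and presented to lymphocytes over a longer time. Ovalbumin is used as a model antigen with little adjuvant activity of its own. The comparison asks what the antigen adds to the early response to the polysaccharide.

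The 2 arrays were close to each other. Of the 14692 genes, 301 were at least 2-fold higher with OVA+AEPS than with AEPS (2.05%) and 276 at least 2-fold lower (1.88%), together 3.93%. The share over all 33466 probes was 5.8%. Of these 577, 52.2% were higher; with scaling to spiked control RNA the median of all genes was -0.24 and the split was 244 higher to 396 lower (38.1% higher), so list medians below have the median over all genes of the same pair subtracted, while counts above or below 0 do not. The median difference of all genes was 0.0010, and 13148 genes (89.5%) lay within 0.5 of 0. A short list with no member past 2-fold and most members within 0.5 of 0 is therefore close to the share over all genes, and such counts below only describe the list. Among the 13934 genes above background on both arrays, 87 were at least 2-fold higher (0.624%) and 112 at least 2-fold lower (0.804%), together 1.43%, and the differences had an SD across genes of 0.333. No other pair of the 5 arrays had so few 2-fold genes: the other 9 pairs had between 7.48% (AEPS minus OVA) and 15.6% (AEPS minus PBS). Signals below are scaled signals, which are the processed intensity of a gene's probe on a linear scale after the arrays were set to a common 75th percentile of 404 units. The ± value is a technical standard error from the scanner's error model, with a median of 0.204, and leaves out animals and hybridizations. For probes printed at several spots, the median SD between spots of a probe was 0.053 with OVA+AEPS and 0.051 with AEPS. Of 285 probes printed at 10 spots, none differed 2-fold between the 2 arrays. Their differences, which also hold those between animals and hybridizations, ran from -0.73 for Acta2 (smooth muscle actin) to 0.73 for Prpf19 (a splicing factor). Among housekeeping genes, Actb (cytoplasmic actin) differed by -0.02, Ppia (cyclophilin A) by -0.04, Hprt (purine salvage) by 0.06 and Gapdh (glycolysis) by -0.35.

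**Figure D1:**
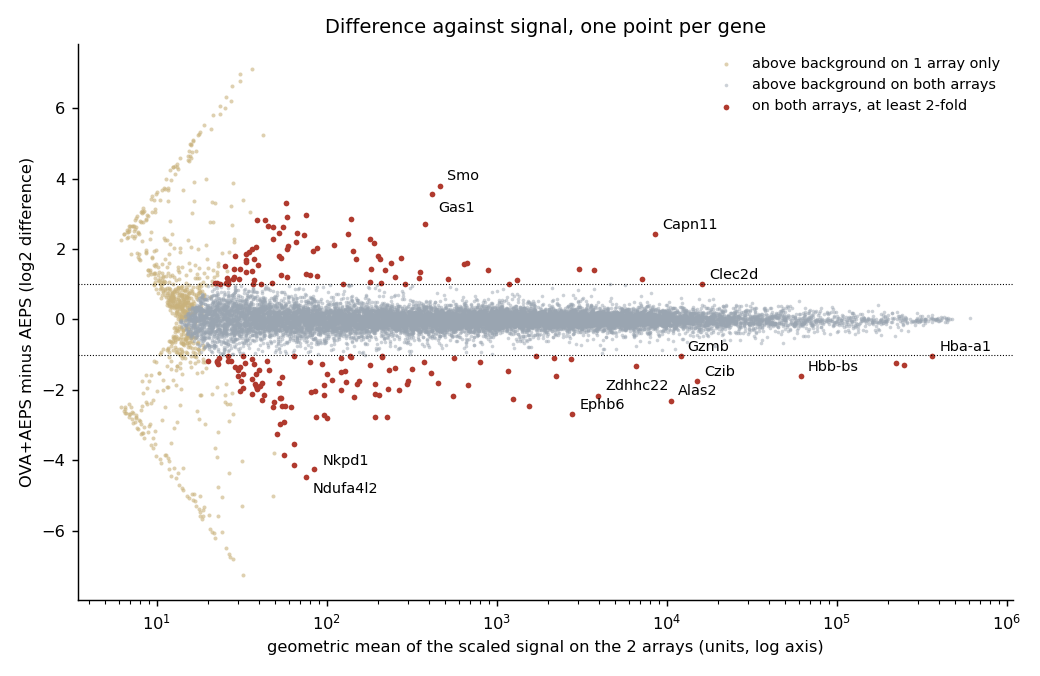
Each point is 1 of 14692 genes, with the geometric mean of the scaled signal on the OVA+AEPS and AEPS arrays across (log axis, units) and the log2 difference OVA+AEPS minus AEPS upward; dotted lines mark 2-fold. Genes above background on both arrays are grey, or red where at least 2-fold apart (87 higher and 112 lower), and the sand-coloured points are 758 genes above background on 1 array only, which fan out at the dim end.

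Large differences sat mainly among dim probes. When the 13934 genes were ordered by mean signal, the 5 brighter deciles held 8 higher and 18 lower genes of 6967, with an SD of 0.21, and the 5 dimmer deciles held 79 higher and 94 lower of 6967, with an SD of 0.42. In the brightest decile, 1 gene was 2-fold higher and 5 were 2-fold lower. Of the 758 genes above background on 1 array only, 378 (49.9%) passed 2-fold, a share that the choice of such genes favours. Of the 8 lower genes with the brightest probes, 6 encode globins or haem enzymes (Hba-a1, Hbb-bt, Hbb-b2, Hbb-bs, Alas2 and Fech), and the other two are Czib and Gzmb.

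**Figure D2:**
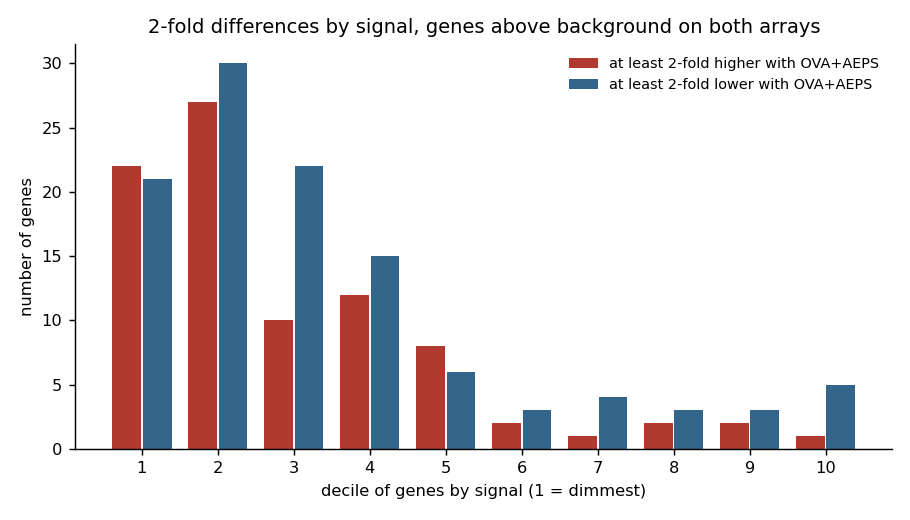
Number of genes at least 2-fold higher (red) or lower (blue) with OVA+AEPS than with AEPS in each decile of the 13934 genes above background on both arrays, ordered by mean scaled signal from dimmest (1) to brightest (10). The next-to-dimmest decile held 27 higher and 30 lower genes, and the brightest held 1 and 5.

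Several red blood cell genes with bright probes were lower. Alas2, which starts haem synthesis in developing red cells, differed by -2.31 with OVA+AEPS. The adult globin genes Hbb-bs, Hbb-bt and Hba-a1, whose products form haemoglobin, and Slc4a1, the anion exchanger of the red cell membrane, whose probe was dimmer, differed by -1.05 to -2.11. Haem and globin genes are switched on together during red cell development by factors that include GATA1, which binds the bases GATA, and KLF1, which binds CACCC. The 250 bases before the RefSeq start of 3 of these genes are shown because the genes moved together across the arrays; capitals mark GATAA and CACCC on either strand (TTATC and GGGTG where the other strand carries them), and the motifs share no bases with each other. The build is GRCm38.p6 and all 3 genes were matched by symbol: Alas2 at chrX:150547167-150547416 on the + strand, Hbb-bs at chr7:103827929-103828178 on the - strand and Hba-a1 at chr11:32283422-32283671 on the + strand.
Alas2: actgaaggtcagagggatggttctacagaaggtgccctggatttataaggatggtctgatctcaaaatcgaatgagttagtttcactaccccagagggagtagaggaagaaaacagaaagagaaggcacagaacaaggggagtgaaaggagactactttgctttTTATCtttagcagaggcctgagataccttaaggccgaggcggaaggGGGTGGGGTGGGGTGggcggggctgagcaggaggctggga
Hbb-bs: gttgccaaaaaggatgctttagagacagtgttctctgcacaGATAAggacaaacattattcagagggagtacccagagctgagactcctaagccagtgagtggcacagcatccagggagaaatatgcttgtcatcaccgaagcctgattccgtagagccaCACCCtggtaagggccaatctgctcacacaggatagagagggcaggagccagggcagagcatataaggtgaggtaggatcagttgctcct
Hba-a1: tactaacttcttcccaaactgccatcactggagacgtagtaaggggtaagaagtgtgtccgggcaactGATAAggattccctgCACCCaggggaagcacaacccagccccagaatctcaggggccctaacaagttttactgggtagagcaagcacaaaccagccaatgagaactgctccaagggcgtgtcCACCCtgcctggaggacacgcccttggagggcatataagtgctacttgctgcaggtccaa
The Alas2 window held 1 GATAA and 3 CACCC, the Hbb-bs window 1 and 1, and the Hba-a1 window 1 and 2. Over the promoters of the genes compared, GATAA was in 16.9% and CACCC in 56.4% of 11738 windows of that length. A match describes these letters and is neither a binding site nor a cause.

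Alas2 had a scaled signal of 4761 with OVA+AEPS, 23586 with AEPS, 8252 with OVA+Alum, 2699 with OVA and 11293 with PBS. Its difference was -2.31 ± 0.20, and the AEPS array was the highest of the 5, the OVA array the lowest. Hbb-bs, a beta globin, had 35121 with OVA+AEPS, 107332 with AEPS, 51663 with OVA+Alum, 21897 with OVA and 64905 with PBS, a difference of -1.61 ± 0.20 in the same array order. Hbb-bt, the neighbouring beta globin gene, stood at 158300 with OVA+AEPS and 388725 with AEPS (-1.30 ± 0.20), and Hbb-b2 at 145920 with OVA+AEPS and 343449 with AEPS (-1.23 ± 0.20). These beta globin sequences are close copies, so their probes may read one another's transcripts and the 3 values are not separate evidence. Hba-a1, an alpha globin, had 254504 with OVA+AEPS, 525898 with AEPS, 306407 with OVA+Alum, 143461 with OVA and 354116 with PBS, which gave -1.05 ± 0.20. The probe named for its near-identical copy Hba-a2 gave 424615 with OVA+AEPS and 443556 with AEPS, or -0.06 ± 0.20, so the 2 alpha globin probes disagree. Slc4a1 had 92.6 with OVA+AEPS, 401 with AEPS, 168 with OVA+Alum, 88.3 with OVA and 267 with PBS, a difference of -2.11 ± 0.21 at a dimmer probe.

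Of the 25 genes on the red cell and platelet list, 23 were on the array and 16 were above background on at least 1 of the 2 arrays. Of these 16, 5 were at least 2-fold lower and none 2-fold higher, against 1.88% lower over all genes, and 14 lay below 0. Their median was -0.28 relative to all genes and their mean was -0.65. The 5 were Alas2, Slc4a1, Hbb-bs, Hbb-bt and Hba-a1; Hba-a1 missed 2-fold, at -0.93 to -0.94, after quantile normalization with or without normexp background correction and in the deposited log2 values. No platelet gene passed 2-fold: Pf4 (platelet factor 4, also made by macrophages) differed by 0.16, Clec1b by -0.04, Gp1bb by -0.06 and Itga2b (integrin alpha IIb) by -0.25. The dimmer Treml1 and Gp9 stood further below 0, at -0.84 ± 0.32 and -0.78 ± 0.46, and Gp9 was above background on only 1 of the 2 arrays. Gata1 itself, which mast cells and eosinophils also express, differed by 0.37. The red cell genes Epb42, Klf1, Rhag and Kel were not above background on any of the 5 arrays. The summed scaled signal of the 16 genes was 1072130 with OVA+AEPS, 1663970 with AEPS, 1091280 with OVA+Alum, 821996 with OVA and 1348980 with PBS. Hba-a2 made up 39.6% of this sum with OVA+AEPS and 26.7% with AEPS. Without Hba-a2 it was 647519 with OVA+AEPS, 1220415 with AEPS, 697552.5 with OVA+Alum, 441631 with OVA and 894215 with PBS. In bulk RNA, fewer cells of a type and less RNA per cell cannot be told apart.

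Other genes followed the array order of Alas2, with AEPS highest and then PBS, OVA+Alum, OVA+AEPS and OVA. This order was chosen for description after the values were seen. It was shared by 36 of the 112 genes (32.1%) that were at least 2-fold lower and above background on both arrays, against 50 of 6915 genes (0.723%) that were below 0 but less than 2-fold lower. Both sets have AEPS above OVA+AEPS by definition, and a wide gap between these arrays leaves more room for the PBS and OVA+Alum arrays to lie between them. Of the 36, 26 were also at least 2-fold lower in OVA minus PBS, as were 465 of all 14692 genes. The order has PBS above OVA by definition, so all 36 lie below 0 in that pair and the 26 are not separate evidence. Fech (ferrochelatase, the last enzyme of haem synthesis) had 4189 with OVA+AEPS, 10392 with AEPS, 6199.8 with OVA+Alum, 3417 with OVA and 7251 with PBS, a difference of -1.31 ± 0.20. Aqp1 (the water channel of the red cell membrane) gave -1.53 ± 0.31 at 19 with OVA+AEPS and 54.9 with AEPS. Slc38a5, an amino acid transporter, gave -1.80 ± 0.25 at 27.9 with OVA+AEPS and 97.5 with AEPS.

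The order also took in genes without a textbook role in red cells. Czib had 8212 with OVA+AEPS, 27588 with AEPS, 9170.2 with OVA+Alum, 5166 with OVA and 14126 with PBS, a difference of -1.75 ± 0.20. Zdhhc22, a palmitoyltransferase family member, had 1866 with OVA+AEPS, 8382 with AEPS, 2541 with OVA+Alum, 997 with OVA and 3025 with PBS, or -2.17 ± 0.20. Slc6a20a, an imino acid transporter, had 662 with OVA+AEPS and 3646 with AEPS (-2.46 ± 0.20), and Irak1bp1 gave -1.62. Ephb6, an ephrin receptor, gave -2.69 ± 0.20 at 1090.2 with OVA+AEPS and 7054 with AEPS, but its further probe gave -0.10, so the 2 Ephb6 probes do not match. Of the 36 genes, 26 had a promoter in the RefSeq table, among them 8 with GATAA (30.8%) and 19 with CACCC (73.1%). Alas2, Hbb-bs and Hba-a1, shown above with both motifs, are among the 26 and count towards these shares. The order was set by Alas2 itself, and a difference in shares was not tested. The 62 promoters of other 2-fold lower genes held GATAA in 14 (22.6%) and CACCC in 34 (54.8%).

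**Figure D3:**
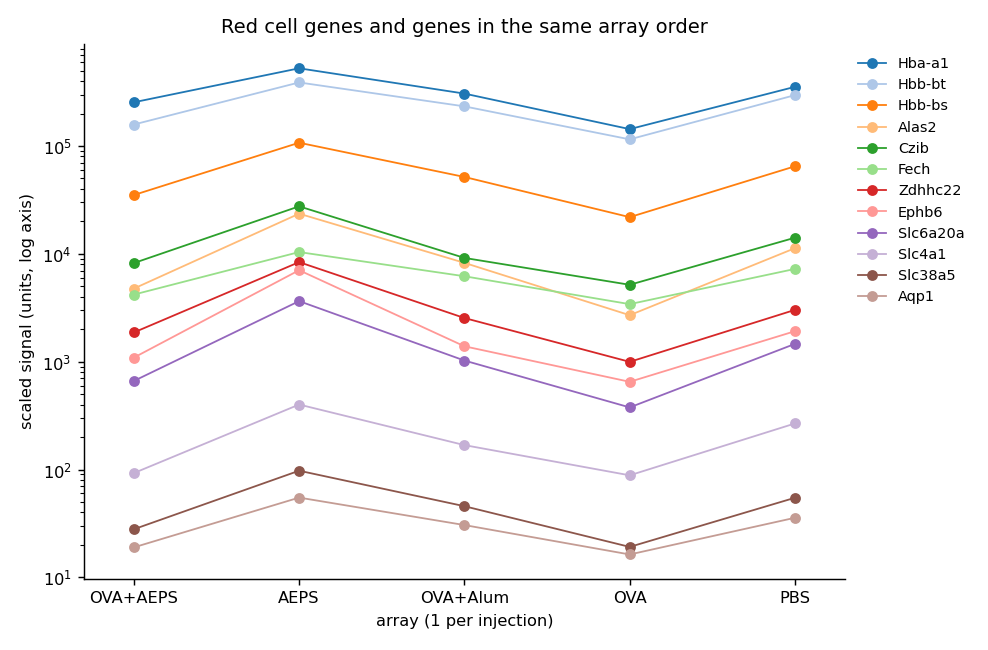
Scaled signal (units, log axis) of 12 genes on the 5 arrays, 1 array per injection, with lines joining the values of a gene. Each line is highest with AEPS and lowest with OVA; Alas2 stands at 4761 with OVA+AEPS and 23586 with AEPS.

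Markers of NK and cytotoxic cells formed the list with the lowest median. All 24 measured markers lay below 0, from -1.05 (Gzmb) to -0.08 (Ccl5), and the median stood at -0.63 relative to all genes; over all genes, 49.8% lay below 0. Only Gzmb of the 24 passed 2-fold, and it missed it narrowly after quantile normalization and in the deposited log2 values (-0.99 in each), while with spike-in scaling 6 of the 24 were 2-fold lower. Gzmb, the protease granzyme B of cytotoxic granules, had 8398 with OVA+AEPS, 17333 with AEPS, 5639 with OVA+Alum, 3291 with OVA and 1882 with PBS, a difference of -1.05 ± 0.20. Its 2 highest arrays were those with AEPS. Prf1 (perforin, which opens pores in target cells) had 2299 with OVA+AEPS, 3688 with AEPS, 2893 with OVA+Alum, 2678 with OVA and 2344 with PBS, or -0.68 ± 0.20. Gzma (granzyme A) had 54354 with OVA+AEPS and 74750.4 with AEPS, or -0.46 ± 0.20, and Nkg7, a granule protein, gave -0.61.

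NK receptor genes stood on the same side. Ncr1 (NKp46, the activating receptor that marks NK cells) had 636 with OVA+AEPS, 999 with AEPS, 770.3 with OVA+Alum, 1337 with OVA and 906 with PBS, a difference of -0.65 ± 0.20. Klrb1c (NK1.1) differed by -0.71 ± 0.20, Klrd1 (CD94) by -0.66, Klrk1 (NKG2D) by -0.56 and Klrg1 by -0.76. The Ly49 receptor genes Klra8, Klra7, Klra4 and Klra1 gave -0.91, -0.80, -0.75 and -0.27; they are close copies of each other and BALB/c mice carry their own set, so the probes may not separate them. Xcl1, a chemokine that NK and T cells release, had 957 with OVA+AEPS, 1680.4 with AEPS, 849 with OVA+Alum, 1765 with OVA and 888 with PBS, or -0.81 ± 0.20. The regulators Eomes and Tbx21, which direct NK cell and cytotoxic T cell programmes, differed by -0.57 and -0.48, although a further Eomes probe gave 0.13. Ccl5, a chemokine of activated lymphocytes and macrophages, differed least, with 173245 with OVA+AEPS and 183431 with AEPS. The summed signal of the 24 genes was 257564 with OVA+AEPS, 308243 with AEPS, 195923 with OVA+Alum, 207003 with OVA and 145884 with PBS. Ccl5 made up 67.3% of this sum with OVA+AEPS and 59.5% with AEPS. Without Ccl5 it was 84319.5 with OVA+AEPS, 124812 with AEPS, 84502.5 with OVA+Alum, 94717 with OVA and 65240.4 with PBS, and 20 of the 24 genes were higher on the OVA than on the OVA+AEPS array. Several red cell genes were also lower with OVA+AEPS than with AEPS. In OVA minus PBS, the NK list had a median of 0.72 relative to all genes. The red cell and platelet list had one of -0.075 in that pair, with Alas2 at -2.07. A link between the 2 lists was not tested.

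T cell markers were lower by a smaller amount. Of 24 measured, 22 lay below 0 and none passed 2-fold, with a median of -0.35 relative to all genes. Cd8b1 (the CD8 beta chain of cytotoxic T cells) had 307 with OVA+AEPS, 510.2 with AEPS, 673 with OVA+Alum, 516 with OVA and 709.8 with PBS, a difference of -0.73 ± 0.20. Zap70, the kinase next to the antigen receptor, gave -0.64 ± 0.20 and -0.77 by a further probe. Thy1, a surface marker of T cells, had 6357 with OVA+AEPS, 9841 with AEPS, 13960.3 with OVA+Alum, 11498 with OVA and 16078 with PBS, or -0.63 ± 0.20. The antigen receptor subunits Cd3g and Cd3d gave -0.50 and -0.49. Cd4 stood at -0.17, Cd2 at 0.03 and Foxp3, the regulatory T cell factor, at 0.17, the highest of the list. On the T cell list the OVA+AEPS array had the lowest summed signal of the 5: 118617 with OVA+AEPS, 132065 with AEPS, 174558 with OVA+Alum, 136098 with OVA and 166972 with PBS.

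Neutrophil markers were also mostly below 0. The count was 30 of 32, none of them 2-fold, with a median of -0.39 relative to all genes. Cxcr2, the receptor that draws neutrophils towards Cxcl1 and Cxcl2, had 4838 with OVA+AEPS, 6649 with AEPS, 19734 with OVA+Alum, 8595 with OVA and 1685 with PBS, a difference of -0.46 ± 0.20. Lcn2, an iron-sequestering granule protein, had 57983 with OVA+AEPS and 79564 with AEPS, or -0.46 ± 0.20, and Mmp8 (neutrophil collagenase) gave -0.41. The stefin genes Stfa2l1, Stfa3 and Cstdc4 gave -0.58, -0.54 and -0.67, values that may overlap because these genes are near copies. S100a8 and S100a9, the calprotectin subunits, differed by -0.16 and -0.04, and the granule genes Ltf, Ngp and Camp by -0.17, -0.17 and -0.06. The serine proteases Prtn3 (0.53) and Elane (0.23), which neutrophil precursors make, were the 2 above 0. The summed signal was 1374900 with OVA+AEPS, 1579620 with AEPS, 1529720 with OVA+Alum, 1268150 with OVA and 721132 with PBS, which placed the PBS array lowest and both AEPS arrays above OVA.

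Large peritoneal macrophage markers lay slightly on the other side. Of 32 measured, 27 were above 0 and none passed 2-fold, with a median of 0.12 relative to all genes. Marco, a scavenger receptor for bacterial and other particles, had 8020.5 with OVA+AEPS, 4087 with AEPS, 1365 with OVA+Alum, 4811 with OVA and 8423 with PBS, a difference of 0.97 ± 0.20 just under 2-fold. Stab1, another scavenger receptor, stood at 4533 with OVA+AEPS and 2846 with AEPS, or 0.67 ± 0.20. Selp (P-selectin, expressed by resident peritoneal macrophages of mice) gave 0.40 ± 0.06 and Vsig4 (a complement receptor) 0.30. Gata6, the factor that defines large peritoneal macrophages, had 710.4 with OVA+AEPS, 702 with AEPS, 704 with OVA+Alum, 1566 with OVA and 1843 with PBS, a difference of 0.02 ± 0.20. Adgre1 and Timd4, markers of mature peritoneal macrophages, gave 0.25 and 0.11.

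The remaining cell types had medians between -0.14 and 0.034. For B cells, all 25 markers were within 0.5 of 0 and the median was -0.040; Ms4a1 (CD20) stood at -0.29 and Blnk, an adaptor of the B cell receptor, at 0.35. Mast cell markers had a median of -0.075 over 22 genes, with Mcpt4 (a mast cell chymase) at -0.39, Kit at 0.08 and Hdc (histamine synthesis) at -0.17. Eosinophil and basophil markers had a median of 0.034 over 15, with 9 above 0 and 6 below. Siglecf was the highest at 0.35, and the dim Cd200r3 and Mcpt8 were the lowest at -0.47 ± 0.27 and -0.44 ± 0.27. Inflammatory monocyte markers stood at -0.10 over 17, where Ccr2, the receptor that brings monocytes out of bone marrow, had 363 with OVA+AEPS, 633 with AEPS, 479 with OVA+Alum, 1191 with OVA and 612 with PBS (-0.80 ± 0.20) and Ly6c1 gave -0.59 ± 0.20, while Vcan (0.25) and Ms4a6c (0.19) were above 0. Small peritoneal macrophage and dendritic cell markers had a median of -0.14 over 21, with Itgax (CD11c) at -0.49 and Folr2 at 0.53. Mesothelial, stromal and endothelial markers had a median of -0.10 over 23, from -0.73 (Acta2) to 0.997 ± 0.36 (Lrrn4, a mesothelial gene at 35.2 with OVA+AEPS and 17.6 with AEPS).

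**Figure D4:**
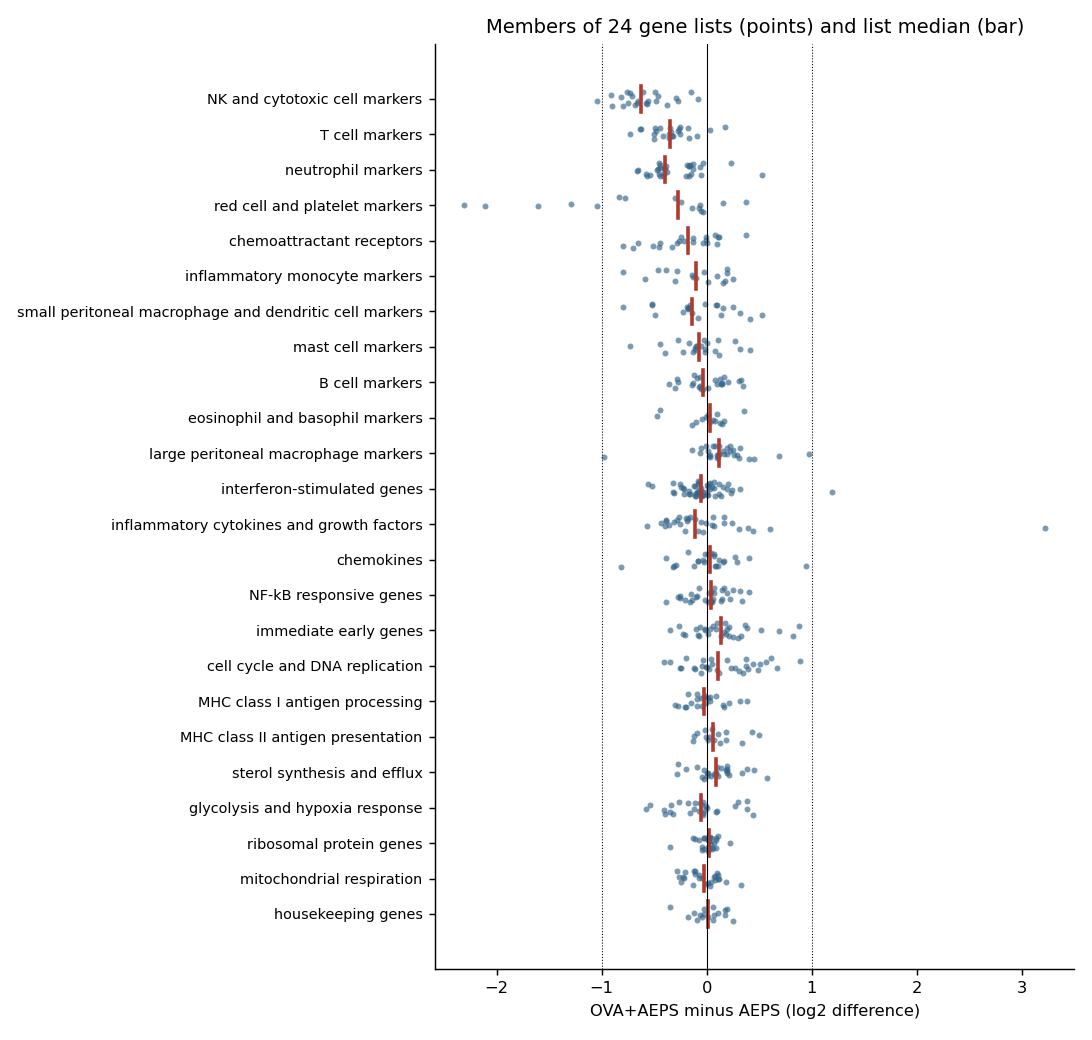
Log2 difference OVA+AEPS minus AEPS of the measured members of 24 gene lists (points) with the list median (red bar); dotted lines mark 2-fold and the solid line 0. All 24 NK and cytotoxic markers lie left of 0, the red cell list reaches -2.31 (Alas2), and the ribosomal protein genes sit within 0.5 of 0.

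Interferon-stimulated genes, the antiviral genes switched on by type I and type II interferons, had counts near those of all genes. Of 53 measured, 1 was at least 2-fold higher (2.05% over all genes), none was 2-fold lower (1.88% over all genes) and 50 lay within 0.5 of 0 (89.5% over all genes), with a median of -0.055 relative to all genes. Tgtp1, an interferon-inducible GTPase, was the 1 higher gene, with 383 with OVA+AEPS, 167 with AEPS, 40.7 with OVA+Alum, 38.5 with OVA and 27.9 with PBS, a difference of 1.20 ± 0.21; it missed 2-fold under spike-in scaling (0.95) and, by a hair, after normexp and quantile steps (0.9998). Tgtp2, its close copy, had a brighter probe that gave -0.11 ± 0.20, so the 2 probes disagree and may read one another's transcripts. Ifit1, an antiviral RNA-binding protein, had 27672 with OVA+AEPS, 39700.1 with AEPS, 1913 with OVA+Alum, 3841 with OVA and 631 with PBS, or -0.52 ± 0.20. Ifi44 had 1291 with OVA+AEPS, 1908 with AEPS, 121 with OVA+Alum, 349.5 with OVA and 238 with PBS, or -0.56 ± 0.20, the lowest of the list. Rsad2 (viperin) gave -0.32. For Tgtp1 and Ifit1, both AEPS arrays stood above the other 3. Among interferons and their receptors, none of 12 passed 2-fold: Ifng (interferon gamma, made chiefly by NK and T cells) had 1155 with OVA+AEPS, 1828 with AEPS, 1422 with OVA+Alum, 740 with OVA and 347 with PBS, a difference of -0.66 ± 0.14, and Ifnb1 (interferon beta) had 47.4 with OVA+AEPS and 30.3 with AEPS, or 0.64 ± 0.26.

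Chemokine and cytokine lists had counts past 2-fold near the 3.93% over all genes, a share that leaves few or none in lists of this length. None of 26 chemokines passed 2-fold and the median was 0.027. The neutrophil attractants Cxcl1, Cxcl2 and Cxcl5 differed by 0.17, 0.12 and 0.29, and Cxcl10, an attractant of activated T and NK cells, by 0.07. Cxcl12, which retains leukocytes in tissues and marrow, had 187 with OVA+AEPS, 97.1 with AEPS, 79.5 with OVA+Alum, 150.3 with OVA and 292 with PBS, a difference of 0.94 ± 0.21, with 0.90 by a further probe, so its 2 probes gave like values. Of 31 inflammatory cytokines and growth factors, 1 passed 2-fold, with a median of -0.12. This was Lif (leukaemia inhibitory factor), which had 83.6 with OVA+AEPS, was not well above background with AEPS and was at least 6.08-fold higher. Tnf had 15853 with OVA+AEPS and 12814 with AEPS (0.31 ± 0.07), Il10, a cytokine that restrains inflammation, 824 with OVA+AEPS and 1077 with AEPS (-0.39 ± 0.07), and the alarmin Il33 284 with OVA+AEPS and 419.7 with AEPS (-0.57 ± 0.20). Il12a, a subunit of interleukin 12, stood at 0.60 ± 0.22. Of 10 T helper cytokine genes none passed 2-fold, 7 lay below 0 and the median was -0.10; Il2 gave -0.60, Il22 -0.33 and Il17a -0.18. The 3 above 0, Il4, Il5 and Il13 gave 0.12 ± 0.07, 0.51 ± 0.33 and 0.40 ± 0.24. Chemoattractant receptors had a median of -0.18, with 16 of 22 below 0, among them Ccr2, Ccr1 (-0.71), Cxcr1 (-0.66) and Cxcr3 (-0.44).

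Counts past 2-fold for signalling targets were also near those of all genes. All 31 NF-kB responsive genes lay within 0.5 of 0, from -0.39 (Zc3h12a, an RNase that degrades cytokine transcripts) to 0.40 (Nos2, inducible nitric oxide synthase), with a median of 0.039. Tnfaip3, an inhibitor of the pathway, had 77372 with OVA+AEPS, 69009.9 with AEPS, 34263 with OVA+Alum, 32422 with OVA and 12959.5 with PBS, a difference of 0.17 ± 0.20. Immediate early genes, which respond within minutes of a stimulus and also to handling of cells, had 21 of 31 above 0, none 2-fold, and a median of 0.13. Klf4, a transcription factor of macrophages and monocytes, had 782 with OVA+AEPS, 425 with AEPS, 702 with OVA+Alum, 502 with OVA and 1825 with PBS, or 0.88 ± 0.20. Fosb had 367 with OVA+AEPS, 208 with AEPS, 517 with OVA+Alum, 191 with OVA and 233 with PBS (0.82 ± 0.21), and Fos, measured at 10 spots, had 3582 with OVA+AEPS, 2217 with AEPS, 11994 with OVA+Alum, 5074 with OVA and 4949 with PBS (0.69 ± 0.06). Klf2 stood at 0.52, Dusp1 at 0.39 and Btg2 at -0.35. Their OVA+AEPS values were not the highest of the 5 arrays for Klf4, Fosb or Fos.

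Cell cycle genes had 21 of 32 above 0 and a median of 0.11, with none 2-fold. The mitotic genes were the highest: Aurka, a spindle kinase, had 419 with OVA+AEPS, 227 with AEPS, 385 with OVA+Alum, 357 with OVA and 449 with PBS, a difference of 0.89 ± 0.21. Cdc20, an activator of the anaphase-promoting complex, had 942 with OVA+AEPS, 590.1 with AEPS, 989 with OVA+Alum, 901 with OVA and 1199 with PBS, or 0.67 ± 0.20. Ccnb1 (cyclin B1) gave 0.61 ± 0.21 and 0.67 and 0.77 by its 2 further probes, Ccnb2 0.56, Plk1 0.51 and Birc5 0.49. The replication genes Mcm5, Mcm4 and Tyms lay on the other side, at -0.35, -0.12 and -0.19, and Top2a stood at -0.12. For Aurka and Cdc20 the AEPS array was the lowest of the 5.

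Receptor lists held a few single genes past 2-fold. Among 27 C-type lectin and scavenger receptors, 2 were higher (2.05% over all genes) and none lower (1.88%), with a median of -0.0008. Clec2d, the ligand of an inhibitory NK receptor, had 22748 with OVA+AEPS, 11335 with AEPS, 8598 with OVA+Alum, 7316 with OVA and 4139.8 with PBS, a difference of 1.005 ± 0.20, and the OVA+AEPS array was the highest of the 5; with spike-in scaling it was 0.76. Cd209e, a DC-SIGN family lectin, had 161 with OVA+AEPS, 42.3 with AEPS, 109.5 with OVA+Alum, 84.3 with OVA and 55.5 with PBS, or 1.93 ± 0.23. Card9, the adaptor of fungal polysaccharide receptors, had 91.4 with OVA+AEPS and 50.5 with AEPS (0.86 ± 0.22), and Clec4n (dectin-2) 13106 with OVA+AEPS and 18381 with AEPS (-0.49 ± 0.20). Of 30 pattern recognition receptors and adaptors, only Tlr11 passed 2-fold; it was not well above background with OVA+AEPS and was at least 1.28-fold lower, a bound below 2-fold. Tlr4, the endotoxin receptor, had 1451 with OVA+AEPS and 1963 with AEPS (-0.44 ± 0.14), and its partner Ly96 (MD-2) gave 0.30.

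No antigen presentation gene passed 2-fold, as against 3.93% of all genes, a share that leaves few or none in lists of this length. All 16 MHC class II genes lay within 0.5 of 0, with a median of 0.055: Ciita, their master regulator, stood at 0.50 and H2-Ab1 at -0.13. All 23 MHC class I genes lay within 0.5 of 0, with a median of -0.023. Among 16 co-stimulatory and checkpoint ligands, Cd80, which co-stimulates T cells, had 3145 with OVA+AEPS, 1932 with AEPS, 2942 with OVA+Alum, 2693 with OVA and 2687 with PBS, a difference of 0.70 ± 0.20 with 0.35 by a further probe, while Cd86 stood at -0.01 and Cd274 (PD-L1) at -0.04.

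Metabolic, stress and effector lists had medians from -0.062 for iron and haem handling to 0.092 for the arginine, itaconate and tryptophan enzymes. In the sterol list, Srebf2, the factor that drives cholesterol synthesis, gave 0.57 and Abcg1, a cholesterol exporter, 0.45, and 20 of 27 members were above 0. Glycolysis and hypoxia genes had 20 of 28 below 0, with Hk3 at -0.58, Slc16a3 (a lactate exporter) at -0.41 and Pfkfb3 at 0.38. Of the arginine, itaconate and tryptophan enzymes, 11 of 13 were above 0, and Acod1, which makes itaconate, had 216245 with OVA+AEPS and 213627 with AEPS (0.02 ± 0.06). In the iron list, Hpx (hemopexin, a haem carrier of plasma) stood at 1.01 ± 0.34. Its signals were dim, 33.5 with OVA+AEPS and 16.6 with AEPS, and it missed 2-fold under 4 of 8 other settings (0.29 to 0.96). Slc40a1 (ferroportin, the iron exporter) stood at -0.70 ± 0.21. Hamp (hepcidin, which removes ferroportin) stood at -0.96 ± 0.28, also at dim signals of 22.9 with OVA+AEPS and 44.7 with AEPS. Its probe was above background on only 2 of the 5 arrays. Of 19 complement genes, Cfd alone passed 2-fold (1.34 ± 0.54), was above background with OVA+AEPS only and had a bound of 1.58-fold. Of 20 alternative activation genes, Chil4 alone did, being at least 2.44-fold lower and above background with AEPS only. Lif, Tlr11, Cfd and Chil4, each above background on 1 array only, missed 2-fold after normexp and quantile steps (0.93, -0.16, 0.23 and -0.37). P2ry12, an ADP receptor, was the lowest of 18 purinergic genes at -0.93 ± 0.24. All 28 ribosomal protein genes and all 26 mitochondrial respiration genes lay within 0.5 of 0.

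The largest differences among genes above background on both arrays were in genes of other functions, most at dim probes. Smo, the signal transducer of the Hedgehog pathway, had 1738 with OVA+AEPS, 125 with AEPS, 193 with OVA+Alum, 137 with OVA and 164 with PBS, a difference of 3.80 ± 0.21. Gas1, a Hedgehog co-receptor, had 1419.6 with OVA+AEPS, 121 with AEPS, 140.3 with OVA+Alum, 145 with OVA and 213 with PBS, or 3.56 ± 0.21. In both, the OVA+AEPS array stood alone above the other 4, and a further probe gave 0.16 for Smo and 0.21 for Gas1. Other Hedgehog genes, looked up after these values were seen, gave -0.0096 for Ptch1, 0.032 for Sufu, -0.20 for Cdon, 0.037 for Boc, -0.26 for Kif7 and -0.80 for Disp1. Usp40, a deubiquitinase, had 969 with OVA+AEPS and 149 with AEPS (2.70 ± 0.21) and -0.16 by a further probe. Gja4 (connexin 37) had 375 with OVA+AEPS and 51.9 with AEPS (2.85 ± 0.22), and Txndc2, a thioredoxin of sperm, 181 with OVA+AEPS and 18.3 with AEPS (3.31 ± 0.31). Capn11, a calpain protease, was the largest at a bright probe, with 19706 with OVA+AEPS, 3699 with AEPS, 3766 with OVA+Alum, 3452 with OVA and 5853 with PBS, or 2.41 ± 0.20. Fam207a had 10688 with OVA+AEPS, 4788 with AEPS, 13227 with OVA+Alum, 12871 with OVA and 13759.6 with PBS, a difference of 1.16 ± 0.20 in which the AEPS array was the low one.

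On the lower side, Ndufa4l2, a mitochondrial protein induced by hypoxia, had 16 with OVA+AEPS, 354 with AEPS, 15.9 with OVA+Alum, 21.8 with OVA and 24.6 with PBS, a difference of -4.47 ± 0.34. Nkpd1 had 19.3 with OVA+AEPS, 366 with AEPS, 23.8 with OVA+Alum, 23.1 with OVA and 22.6 with PBS, or -4.24 ± 0.30. For both genes the AEPS array stood alone and the other 4 lay close together. Ache (acetylcholinesterase) gave -3.84 ± 0.34 at 14.8 with OVA+AEPS and 212 with AEPS, and Pcdh15, a cadherin of hair cells, -2.91 ± 0.29 with 0.34 by a further probe. Tifab, an inhibitor of TRAF6 signalling, had 18.8 with OVA+AEPS, 219 with AEPS, 38.6 with OVA+Alum, 39.4 with OVA and 131 with PBS, or -3.54 ± 0.31, with the PBS array between the AEPS array and the other 3.

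Many of these differences came from 1 array and 1 probe. Among the 87 higher genes, 43 were at least 2-fold above all 4 other arrays on the OVA+AEPS array alone, and among the 112 lower genes, 59 were so on the AEPS array alone. A further probe above background on both arrays was present for 10 of the 87 higher genes: 1 of the 10 was also 2-fold higher by it and 9 were within 2-fold. That 1 was Cpe (carboxypeptidase E, which processes peptide hormones), with 409 with OVA+AEPS, 202 with AEPS, 389 with OVA+Alum, 215 with OVA and 290.4 with PBS, a difference of 1.02 ± 0.21 and 1.22 by the further probe. Of the 112 lower genes, 8 had a further probe, and none of the 8 was 2-fold different by it. Among the bright higher genes, Tgm3 (1.41), Krtap19-5 (1.41), Xntrpc (1.43) and Tmem91 (1.13) gave -0.03, -0.18, 0.08 and 0.12 by a further probe. The red cell genes, Gzmb, Clec2d and Capn11 had no further probe to set beside theirs.

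Genes above background on 1 array only allow bounds. With the lowest detected signal in place of the missing one, 93 genes were at least 2-fold higher and 90 at least 2-fold lower with OVA+AEPS. Aff2, a transcription elongation factor, was at least 31.1-fold higher, Fank1 at least 25.2-fold, Nhlrc4 at least 23.6-fold, Aadacl4fm2 at least 20.2-fold and Pabpn1l at least 19-fold. The olfactory receptor gene Olfr1018 was at least 30.7-fold lower, Lrrc34 at least 22.8-fold, Myt1 (a neural factor) at least 21.8-fold, Casr (the calcium-sensing receptor) at least 21.2-fold and Gpr151 at least 20.8-fold. Aff2, Fank1, Nhlrc4 and Aadacl4fm2 were above background on the OVA+AEPS array and on no other of the 5, and Olfr1018, Lrrc34, Myt1 and Gpr151 on the AEPS array and on no other. Probes without a gene symbol passed 2-fold in 8.16% of 14414 and probes named only by a genome region in 9.39% of 7351, both above the 3.93% of named genes.

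The antigen was also compared without the polysaccharide, as OVA minus PBS, a pair that shares no array with OVA+AEPS minus AEPS and in which 10.8% of genes passed 2-fold. Among 13718 genes above background on all 4 arrays, 79 were 2-fold higher and 94 lower with the polysaccharide present, against 723 and 317 without it. Of these, 2 genes were higher in both pairs and 32 lower in both, while 12 were higher with the polysaccharide and lower without it and 5 the reverse. The 32 make up 34.0% of the 94 and 10.1% of the 317. Over all 14134 genes above background on both the OVA and PBS arrays, 2.44% were 2-fold lower and 5.23% 2-fold higher in OVA minus PBS. Alas2 stood at -2.31 and -2.07 in the 2 pairs, Slc6a20a at -2.46 and -1.96, and Epp13 at -2.77 and -2.49. Other lists went apart: the neutrophil list had a median of -0.39 with the polysaccharide and 1.49 without it, the interferon-stimulated list -0.055 and 1.03, the NK list -0.63 and 0.72, each relative to all genes. Large peritoneal macrophage markers had 0.12 and -0.098. The median of all genes in OVA minus PBS, taken off here, was -0.14. All 5 arrays lay on 1 slide, with the OVA+AEPS, AEPS and OVA arrays in row 2 and the PBS array in row 1, so that OVA minus PBS crosses slide rows and OVA+AEPS minus AEPS does not. The difference between the pairs was not tested.

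**Figure D5:**
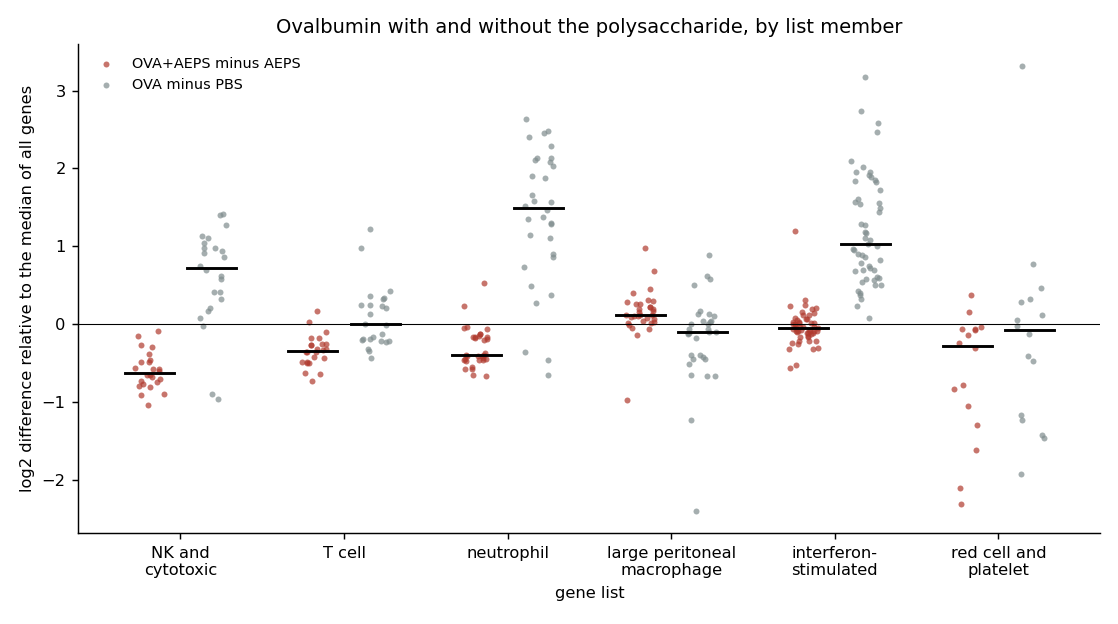
Log2 differences, with each pair's all-gene median taken off, of the measured members of 6 gene lists for OVA+AEPS minus AEPS (red) and OVA minus PBS (grey), with list medians as black bars. The neutrophil median is -0.39 in the red column and 1.49 in the grey one, and the red cell list reaches below -1 in both.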

How the data were processed

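Peritoneal lavage RNA was hybridized to 1 single-colour Agilent array per injection (Cy3), and the 2 arrays compared here had 58.2% (OVA+AEPS) and 56.7% (AEPS) of 55681 probes well above background; the number of arrays limits the precision. The deposited scanner files hold intensity values that the authors obtained with Agilent Feature Extraction 10.7.1.1, which subtracts background, per the file headers. The series' deposited table holds log2 values; its columns share a median of 4.67 and have correlations of at least 0.9998 with the log2 processed signal, so its scale is log2 after a normalization between arrays that the sources used here do not describe. Flags per spot in the deposited files take other values of 0 or 1.

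Control spots (3671 of 62976) and 134 to 219 outlier spots per array were left out, and no spot was saturated. The log2 processed signal minus each array's 75th percentile was averaged over the spots of a probe. Symbols came from a match of the probe's accession to the RefSeq annotation of GRCm38.p6, which named 26582 of 55681 probes, and the brightest probe over the 5 arrays stood for a gene. At least 2-fold counted as higher or lower. A bound uses the lowest signal well above background, or the gene's own signal if larger, on the array that missed it. The calculation was tested on simulated technical error, where 98% and 96% of genes altered by 1.5 and -1.5 passed 2-fold among 13934. Python 3.11.15 with pandas 2.3.3 was used, and limma 3.58.1 in R 4.3.3 for the normexp alternative (offset 50).

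The compared arrays, the gene lists and the genes were chosen with earlier results of these data known. Named genes were the 12 largest differences each way above background on both arrays, the 5 largest bounds each way, up to 4 members of each list and all list members past 2-fold, genes with 2 probes past 2-fold, the 8 brightest past 2-fold each way, up to 6 each way by agreement or opposition with OVA minus PBS, and 4 housekeeping genes; some of them are not reported here. Further list members, genes in the array order of Alas2 and the Hedgehog genes were added after their values were seen.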

Additional observations from a re-analysis of the deposited data

Results flagged for a closer look

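Among the named genes above background on the OVA+AEPS, AEPS, OVA and PBS arrays, 2 differed at least 2-fold in opposite directions in the pairs with and without the polysaccharide. Hnf4aos, a transcript antisense to Hnf4a, stood at 2.91 in OVA+AEPS minus AEPS and at -1.08 in OVA minus PBS. Drd4, a dopamine receptor gene, stood at -3.24 in OVA+AEPS minus AEPS and at 1.09 in OVA minus PBS. The difference between the pairs was not tested, since each group has 1 array.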

How the results depend on the processing

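The counts of 301 higher and 276 lower genes moved by over 1.5 times with the choice of probes and background correction. They were 87 and 112 with background passed on both arrays, 80 and 109 after normexp and quantile normalization, 606 and 513 with no filter on dim probes, 1032 and 910 over all probes, and 689 and 622 with the accession column of the scanner file as the gene name. That column holds no symbols, so lists and named genes could not be recomputed with it. Under 5 other settings (each array's median, quantile normalization, spike-in scaling, the deposited log2 values, the median of a gene's probes) the higher and the lower count each moved by less than 1.5 times. All 376 recomputed list medians moved by less than 0.204, the median technical error of a gene, which is larger than most list medians. NK and cytotoxic markers kept medians from -0.65 to -0.52, neutrophil markers from -0.40 to -0.34 and T cell markers from -0.36 to -0.28. Red cell and platelet markers ran from -0.32 to -0.13, interferon-stimulated genes from -0.06 to -0.01 and large peritoneal macrophage markers from 0.11 to 0.16. Some medians near 0 changed sign. Among them, MHC class I ran from -0.027 to 0.023, oxidative stress and metallothioneins from -0.032 to 0.042 and C-type lectin and scavenger receptors from -0.035 to 0.027. Of the recomputed values of named genes, 1798 moved by less than their technical error, 309 moved by more and 2 changed sign: Sox11, at -2.47 and above background on 1 array only, was 0.68 after normexp and quantile normalization and 0.66 as the median of its probes, and the cause was not tested. No paired analysis was possible because each group has 1 array. Leaving out a replicate was not possible for the same reason.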

Other observations

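Counted over all 5 arrays, 145 genes were at least 2-fold above every other array on the OVA+AEPS array and 175 on the AEPS array. The same count was 97 on the OVA+Alum array, 44 on the OVA array and 103 on the PBS array. Genes at least 2-fold below every other array numbered 16 on the OVA+AEPS array, 21 on the AEPS array, 104 on the OVA+Alum array, 41 on the OVA array and 224 on the PBS array.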
